A study of Mus musculus with 21 samples.

Results

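The rows of 10 genes that are recurrently deleted, mutated or rearranged in B cell acute lymphoblastic leukemia (B-ALL) were followed through the RNA-seq libraries of the study: Etv6, Runx1, Btg1, Erg, Tbl1xr1, Nr3c1, Crebbp, Rb1, Nf1 and Btla. They were taken by symbol from the 24421 genes of the deposited tables, and all 10 were among the 12786 genes that passed the filter on low counts. The cells were primary B cell precursors grown from the bone marrow of 53BP1-/- C57BL/6 mice in 10 ng/ml of interleukin-7 (IL-7), the growth factor of these cells. They carried the empty MIGR1 retroviral vector (EV), MIGR1 with the human fusion kinase BCR-ABL1, or MIGR1 with mouse C-MYC, a transcription factor that drives growth, and were collected 7 to 9 days after transduction. Each condition has 2 libraries of poly(A) RNA from duplicate experiments, and all 6 share the absence of 53BP1, a factor of double-strand break repair, the IL-7 and a transduction. The labels name neither the sex nor the age of the mice, nor which animals gave which library, and they mention no sorting of transduced cells, so the p-values measure only the spread between these libraries.

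In B-ALL, an initiating lesion such as BCR-ABL1 is usually followed by secondary lesions in genes that steer B cell development, restrain division or tune signaling. Etv6, Runx1 and Erg are transcription factors of blood progenitors. Btg1 and Rb1 restrain proliferation, Crebbp and Tbl1xr1 are cofactors at promoters and enhancers, and Nr3c1, Nf1 and Btla encode a hormone receptor, an inhibitor of RAS and an inhibitory surface receptor. Deletions and truncations of most of them are known from patients, so the genes are followed here in cells that had only just received an oncogene. The libraries held between 20687092 and 24095955 reads counted on genes. Myc itself had 180.9 and 137.0 CPM (counts-per-million scaled by edgeR's TMM method) with EV, 343.2 and 348.2 with BCR-ABL1 and 1743 and 1233 with C-MYC, so the C-MYC libraries were the highest, as their label requires. Trp53bp1, the gene of 53BP1, was still read at 15.7 to 30.2 CPM, and a count per gene does not tell from which exons. The 12 markers of B cell precursors were all read in each library, and summed to 9790 and 8858 CPM with EV, 9148 and 8270 with BCR-ABL1 and 7634 and 6141 with C-MYC, where the sum was lowest.

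EV libraries also held more RNA of marker genes of other cell types. All 12 myeloid markers were read in each library, and they summed to 1340 and 1200 CPM with EV, 148.2 and 165.4 with BCR-ABL1 and 213.7 and 361.9 with C-MYC. The 10 markers of T and NK cells summed to 174.9 and 121.1 CPM in EV and to between 4.505 and 10.22 in the other 4 libraries, where 1 of them was at 0 in C-MYC replicate 1. The 6 markers of basophils and mast cells summed to 154.3 and 120.1 CPM in EV against 8.393 to 19.58 elsewhere, with 1 of them at 0 in C-MYC replicate 1. The 8 stromal markers summed to 121.0 and 183.7 CPM in EV against 2.022 to 8.351 elsewhere, with 1 of them at 0 in each EV library, 2 in each BCR-ABL1 library and 4 in each C-MYC library. Erythroid markers were near 0 throughout, with 5 of 8 at 0 in each library. The part of these cells in any comparison with EV was not tested, and in bulk RNA fewer cells of a type and less RNA per cell cannot be told apart.

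The 10 genes lie on 7 chromosomes of the mouse genome (GRCm38, GENCODE M21), and 4 of them on chromosome 16: Crebbp from 4081328 to 4213997, Btla from 45224315 to 45257670, Runx1 from 92601466 to 92826149 and Erg from 95359169 to 95586593. Of the 10, 8 span at least 100 kb, up to 242 kb for Nf1 (chromosome 11, 79339693 to 79581612). Btg1 is the shortest, with 3 blocks of exon in 5.8 kb (chromosome 10, 96617006 to 96622809), and Btla spans 33.4 kb. Etv6 spans 234 kb of chromosome 6 (134035700 to 134270158), Tbl1xr1 140 kb of chromosome 3 (22076652 to 22216594) and Rb1 142 kb of chromosome 14 (73183673 to 73325822). Nr3c1 spans 109 kb. RefSeq start sites were at hand for 8 of the 10 genes, 11 starts in all.

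The 3 stretches of 250 bases that end at a start site are shown on the strand of the gene (RefSeq, GRCm38.p6). Btg1 was taken because it fell most under C-MYC and Tbl1xr1 because its difference was nearest to 0. Runx1 is an example of a long transcription factor gene and does not represent the others. Its stretch shown is 67.6% G and C, and that of its other RefSeq start 45.6%. Capitals mark matches on either strand to the forkhead motif GTAAACA, the CCAAT box CCAAT and the TATA box TATAAA. The Btg1 stretch is chr10:96616751-96617000 (+), that of Tbl1xr1 chr3:22076402-22076651 (+), and that of the second Runx1 start chr16:92697330-92697579 (-).
Btg1: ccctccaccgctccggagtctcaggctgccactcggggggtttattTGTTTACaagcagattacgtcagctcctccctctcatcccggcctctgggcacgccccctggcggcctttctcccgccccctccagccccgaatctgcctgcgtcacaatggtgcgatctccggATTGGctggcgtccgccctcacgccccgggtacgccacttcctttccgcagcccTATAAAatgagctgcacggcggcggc
Tbl1xr1: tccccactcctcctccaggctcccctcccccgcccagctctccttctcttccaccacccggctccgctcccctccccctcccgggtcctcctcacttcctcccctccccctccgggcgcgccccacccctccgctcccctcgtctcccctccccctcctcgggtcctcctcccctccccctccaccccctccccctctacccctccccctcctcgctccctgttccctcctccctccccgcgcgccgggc
Runx1: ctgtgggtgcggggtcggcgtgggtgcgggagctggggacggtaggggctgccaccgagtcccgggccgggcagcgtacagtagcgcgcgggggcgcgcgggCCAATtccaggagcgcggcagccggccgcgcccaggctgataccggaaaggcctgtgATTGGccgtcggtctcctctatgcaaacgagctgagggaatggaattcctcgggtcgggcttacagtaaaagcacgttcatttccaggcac

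The Btg1 stretch holds a TATA box that begins 26 bases before the start, a CCAAT box at 80 bases and a forkhead match at 204 bases. Over the 32851 RefSeq start sites of the mouse, 12.4% of stretches of this length hold TATAAA, 33.8% hold CCAAT and 3.17% hold GTAAACA on either strand. The Tbl1xr1 stretch is 76.0% G and C and holds none of these letters. The E-box CACGTG, the sequence that MYC binds with its partner MAX, was searched for in all 11 stretches. It was present in 1 of them, against 6.02% of all start sites, 71 bases before the other Runx1 start of RefSeq. By GENCODE M21 it lies inside Runx1, within 75 bases of that stretch that are annotated exon. The stretches of Crebbp, Nf1 and Btla hold 250, 199 and 22 bases of annotated exon. The E-box site is shown with its flanks and the E-box in capitals (chr16:92826128-92826157, minus strand), where a match to CCAAT on the other strand follows it directly.
Runx1 E-box: catcacttaagtCACGTGattggcaagagc
No E-box was found in the Btg1 stretch. A match of letters is a description of the window and says nothing about binding.

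All 10 genes were read in each library, at very different levels. Levels of different genes are compared as FPKM, the fragments read per length of transcript and depth of the library, as the authors deposited them. In EV, Btg1 stood far above the others with a mean FPKM of 669.4 ± 115.2 (SD, n = 2). Nr3c1, Crebbp and Erg followed at 48.4 ± 9.06, 45.8 ± 1.11 and 40.9 ± 3.35, where the libraries of Nr3c1 overlapped those of both other genes and those of Crebbp lay above those of Erg. Tbl1xr1 at 28.9 ± 1.80 and Rb1 at 28.0 ± 1.75 could not be told apart, nor could Runx1 at 19.1 ± 5.92 and Etv6 at 16.2 ± 1.71. Nf1 at 3.68 ± 0.05 and Btla at 0.95 ± 0.02 were the lowest. Btg1 was first and Nf1 and Btla last in the other conditions too, with 335.7 ± 12.5 FPKM for Btg1 with BCR-ABL1 and 105.6 ± 0.27 with C-MYC.

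The order in the middle depended on how length was taken into account. As CPM divided by the kilobases of annotated exon, Btg1 had 101.5 ± 18.2 with EV, 53.1 ± 2.19 with BCR-ABL1 and 17.4 ± 0.58 with C-MYC. On this scale Erg was first in BCR-ABL1 at 75.1 ± 3.53 and in C-MYC at 47.3 ± 3.68, and it was second in EV at 76.1 ± 1.44. Crebbp, close to Nr3c1 by FPKM in EV, ranked 7 at 8.67 ± 0.01. FPKM was 6.59 times the count-based value for Btg1 and 5.29 times for Crebbp in EV, but 0.538 times for Erg. Btla and Nf1 were the lowest 2 genes on both scales, and Btla in C-MYC rested on 35 and 27 reads.

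Btg1 was the only one of the 10 genes to pass the test between BCR-ABL1 and EV, where 12.0% of all genes tested were lower and 5.08% higher. In C-MYC, 8 of the 10 were lower than in EV and none was higher, against 24.5% and 18.6% of all genes. In BCR-ABL1 against C-MYC 6 were higher, against 11.9% of all genes. Tbl1xr1 and Nr3c1 passed the test in no comparison. Genes were tested with edgeR's quasi-likelihood test across all genes and called at a Benjamini-Hochberg adjusted p below 0.05.

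**Figure D1:**
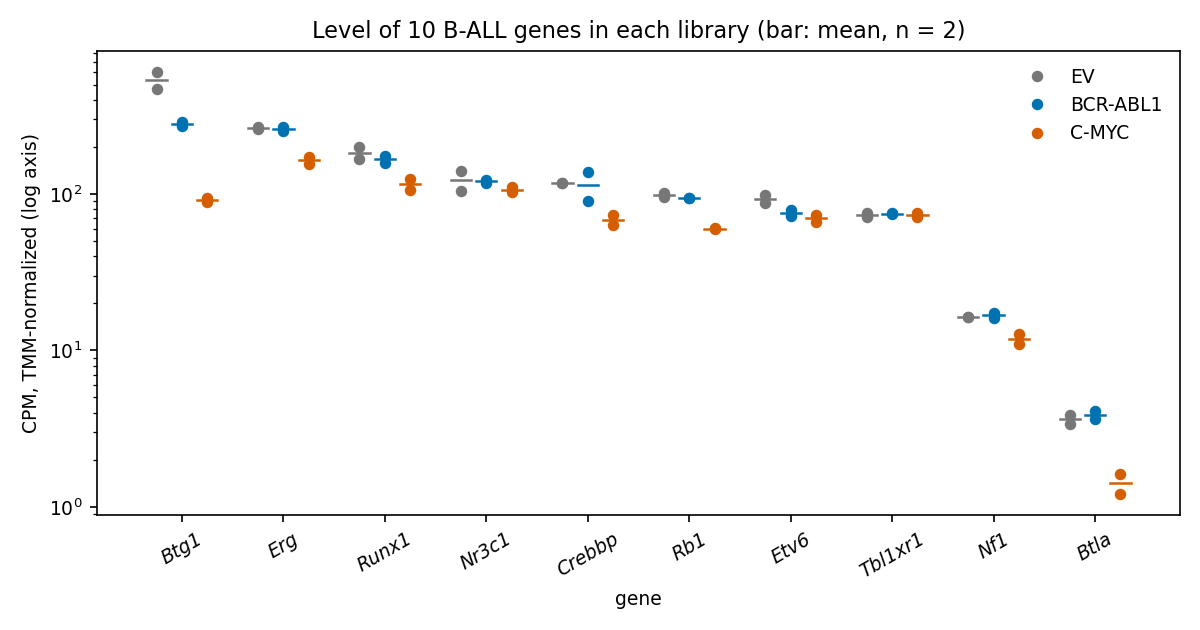
Level of the 10 genes in each library in TMM-normalized CPM on a log axis (points are libraries, bars the mean of 2; gray EV, blue BCR-ABL1, orange C-MYC). Both C-MYC libraries lie below the other 4 for Btg1, Erg, Runx1, Crebbp, Rb1, Nf1 and Btla, while for Tbl1xr1 the 3 conditions overlap.

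For BCR-ABL1 against EV, 0 of the 10 genes were higher and 1 was lower, where 5.08% of all 12786 genes tested were higher and 12.0% lower. The median log2 fold change of the 10 was -0.03, and that of all genes was 0.00. The libraries of the conditions did not overlap for 3 of the 10 (Btg1, Etv6 and Rb1), against 58.9% of all genes. For C-MYC against EV, 0 were higher and 8 lower, where 18.6% of all genes were higher and 24.5% lower, and the medians were -0.68 for the 10 genes and -0.08 for all genes. The libraries did not overlap for 8 of the 10, against 70.6% of all genes. For BCR-ABL1 against C-MYC, 6 were higher and 0 lower, where 11.9% of all genes were higher and 11.5% lower, with medians of 0.59 and 0.00. The libraries did not overlap for 8 of the 10 here as well, against 69.9% of all genes. The comparisons share libraries and are not independent of each other. Markers of myeloid, T and NK, mast and stromal cells were higher in EV than in either oncogene condition, as given above, and their part in the counts against EV was not tested. The myeloid sum also differed between BCR-ABL1 and C-MYC, and its part there was not tested either. The markers of B cell precursors were lower in C-MYC than in EV for 9 of 12 genes, among them Cd79a (log2 fold change -0.84), Cd79b (-1.05), Vpreb1 (-0.80) and Ebf1 (-0.77), and 8 of the 12 were higher in BCR-ABL1 than in C-MYC. Their part in the members' lower levels in C-MYC was not tested.

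**Figure D2:**
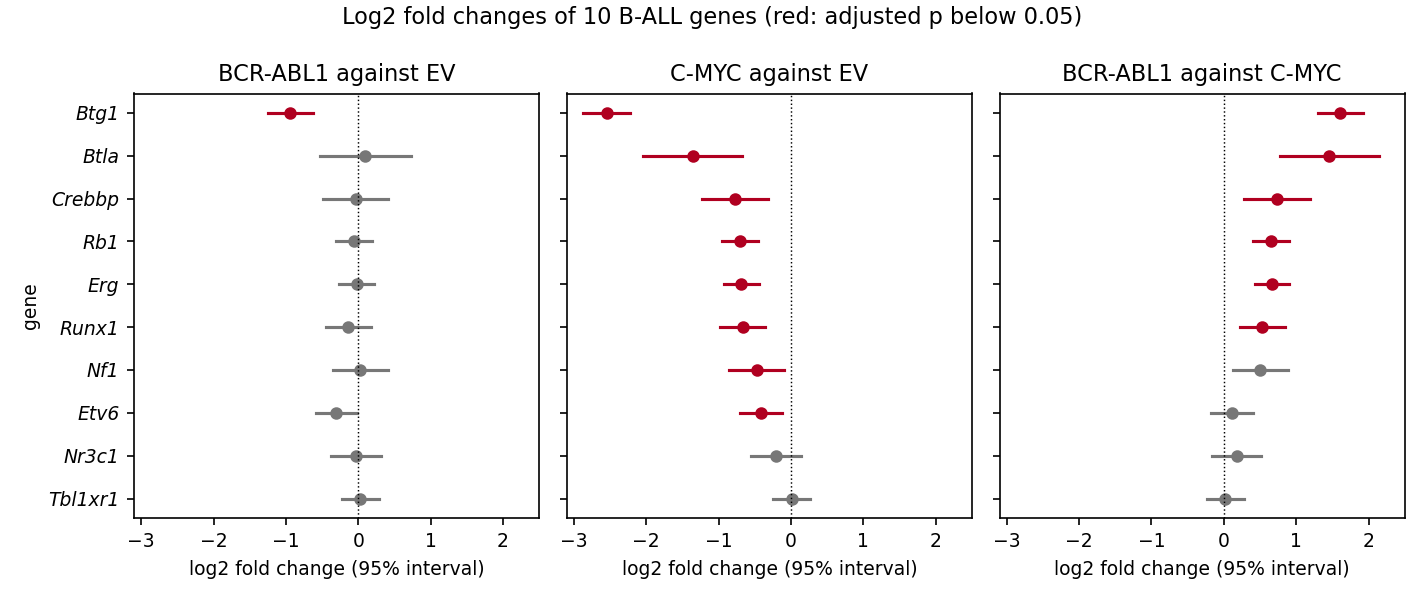
Log2 fold change of each gene in the 3 comparisons (points) with its 95% interval from edgeR's quasi-likelihood fit (lines), positive where the first-named condition is higher. Red marks an adjusted p below 0.05, which holds for Btg1 alone in BCR-ABL1 against EV, for 8 genes in C-MYC against EV and for 6 in BCR-ABL1 against C-MYC.

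Btg1, a cofactor that slows division and helps the CCR4-NOT complex shorten poly(A) tails, fell in both oncogene conditions and fell further under C-MYC. Its level was 604.1 and 468.1 CPM with EV, 288.3 and 271.9 with BCR-ABL1 and 93.8 and 89.5 with C-MYC. The 3 conditions were cleanly separated, with EV highest and C-MYC lowest. EV exceeded BCR-ABL1 1.91-fold (log2 fold change -0.94, SE 0.133, adjusted p = 0.00372) and C-MYC 5.85-fold (log2 fold change -2.55, SE 0.14, adjusted p = 0.000156). BCR-ABL1 exceeded C-MYC 3.06-fold (log2 fold change 1.61, SE 0.136, adjusted p = 0.000619). Of all genes tested, 4.99% had a lower log2 fold change than Btg1 in C-MYC against EV and 13.5% in BCR-ABL1 against EV. The 2 rows of the table for Btg1 pseudogenes, Btg1-ps1 and Btg1-ps2, were at 0 in all libraries.

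Among 12 relatives and partners of Btg1 (the other BTG and TOB proteins, subunits of CCR4-NOT and the methyltransferase Prmt1), 1 rose and 1 fell in BCR-ABL1 against EV, and 2 rose and 1 fell in C-MYC against EV. Over all genes tested, 5.08% rose and 12.0% fell in BCR-ABL1 against EV, and 18.6% rose and 24.5% fell in C-MYC against EV. Between BCR-ABL1 and C-MYC, 11.9% were higher in BCR-ABL1 and 11.5% lower. The same shares are the background for the counts of each list below. Btg2, the closest relative of Btg1, had 111.0 ± 8.61 CPM (SD, n = 2) with EV, 63.7 ± 9.31 with BCR-ABL1 and 37.0 ± 5.78 with C-MYC. Like Btg1 it fell in BCR-ABL1 (log2 fold change -0.80, SE 0.159, adjusted p = 0.0133) and in C-MYC (-1.58, SE 0.163, adjusted p = 0.000475). Prmt1, an arginine methyltransferase that binds Btg1, moved the other way. It rose by a log2 fold change of 0.53 (SE 0.103) in BCR-ABL1 and of 1.10 (SE 0.104) in C-MYC, and Cnot7, a deadenylase subunit, rose by 0.43 (SE 0.103) in C-MYC.

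Rb1, the retinoblastoma protein that holds back E2F factors at the entry to S phase, was lower in C-MYC only. It had 95.6 and 101.0 CPM with EV, 94.4 and 94.2 with BCR-ABL1 and 60.8 and 59.5 with C-MYC. The EV and BCR-ABL1 libraries lay close together and the C-MYC pair well below them. The log2 fold change was -0.71 against EV (SE 0.106, adjusted p = 0.00176), and BCR-ABL1 exceeded C-MYC by 0.65 (SE 0.106, adjusted p = 0.00589). Between BCR-ABL1 and EV the difference was -0.06, with a 95% interval from -0.30 to 0.18. The exons of Rb1 share 408 bases with those of Lpar6, a lysophosphatidic acid receptor inside it, and 488 with those of Rcbtb2. Rcbtb2 fell in both comparisons with EV (-0.48, adjusted p = 0.0493 in BCR-ABL1 and -0.53, adjusted p = 0.016 in C-MYC), and Lpar6 passed the test in none, with -0.64 in C-MYC against EV (adjusted p = 0.102). How reads in the shared bases were counted is not given in the sources used here.

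Of 10 genes around Rb1, its relatives, the D cyclins and their kinases among them, 4 rose and 3 fell in C-MYC against EV. Rbl2, a relative of Rb1, fell with it (-0.70, SE 0.137, adjusted p = 0.00527), as did Ccnd3, the D cyclin of dividing pre-B cells (-0.77, SE 0.122, adjusted p = 0.00219). Cdk4 and Cdk6, kinases that inactivate RB, rose by 0.72 (SE 0.102) and 0.62 (SE 0.12). In BCR-ABL1 against EV only Cdk4 of these 10 passed the test, with a rise of 0.43 (SE 0.102, adjusted p = 0.0254).

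The transcription factors Runx1, Erg and Etv6 were all lower in C-MYC than in EV. Erg, an ETS factor of stem and progenitor cells, had 260.6 and 267.6 CPM with EV, 268.9 and 251.6 with BCR-ABL1 and 173.0 and 154.9 with C-MYC. Runx1, the DNA-binding subunit of core binding factor, had 167.4 and 198.6 CPM with EV, 174.5 and 158.6 with BCR-ABL1 and 124.7 and 105.4 with C-MYC. For both genes the libraries of EV and BCR-ABL1 overlapped, and those of C-MYC lay below them. Erg fell by 0.69 on the log2 scale in C-MYC against EV (SE 0.104, adjusted p = 0.00178) and Runx1 by 0.67 (SE 0.134, adjusted p = 0.0058). BCR-ABL1 exceeded C-MYC by 0.67 for Erg (SE 0.104, adjusted p = 0.00493) and by 0.53 for Runx1 (SE 0.134, adjusted p = 0.026). For Runx1 both calls were lost with limma on log2(FPKM + 1) and log2(FPKM + 0.1), at -0.58 (adjusted p = 0.0692) and -0.62 (adjusted p = 0.0591) in C-MYC against EV and at 0.54 (adjusted p = 0.127) and 0.58 (adjusted p = 0.107) in BCR-ABL1 against C-MYC.

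Etv6, an ETS repressor and partner of Runx1 in the most frequent fusion of childhood B-ALL, had 87.0 and 98.6 CPM in EV. It had 78.6 and 72.05 CPM with BCR-ABL1 and 73.3 and 66.3 with C-MYC. Both oncogene conditions lay below EV and overlapped each other. The fall passed the test in C-MYC (-0.41, SE 0.124, adjusted p = 0.03) but not in BCR-ABL1, where the log2 fold change was -0.30, with a 95% interval from -0.59 to -0.01 before adjustment and an adjusted p of 0.143. BCR-ABL1 and C-MYC differed by 0.11 with an interval from -0.18 to 0.40, which did not pass the test.

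Of 15 further ETS factors, 1 rose and 6 fell in C-MYC against EV, and the other 8 did not pass the test. In BCR-ABL1 against EV 1 rose and 2 fell, and in BCR-ABL1 against C-MYC 4 were higher and 2 lower. Spib, a factor of B cells, fell in both oncogene conditions (-0.84, SE 0.129 under BCR-ABL1 and -1.37, SE 0.131 under C-MYC). Etv5, a gene induced by ERK signaling, had 6.49 ± 1.64 CPM with EV, 26.3 ± 4.29 with BCR-ABL1 and 2.04 ± 0.03 with C-MYC. It rose in BCR-ABL1 (2.01, SE 0.233) and fell in C-MYC (-1.67, SE 0.257). Ets2 fell in BCR-ABL1 (-1.34, SE 0.161) and in C-MYC (-0.70, SE 0.158). Elk3 fell in C-MYC (-1.01, SE 0.178), and Erf, a repressor, rose in C-MYC (1.89, SE 0.254). Etv3 was 0.80 higher in BCR-ABL1 than in C-MYC (SE 0.241, adjusted p = 0.0472).

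Of 5 tested genes around Runx1, 2 fell in each comparison with EV and none rose. Runx2, a relative best known from bone, had 7.46 ± 2.40 CPM with EV, 0.45 ± 0.10 with BCR-ABL1 and 0.79 ± 0.21 with C-MYC (log2 fold changes -4.05, SE 0.409, and -3.22, SE 0.38). Cbfa2t3, a corepressor of the ETO family, fell by 1.37 and 1.39 (SE 0.313 for both), from an EV mean of 91.6 with an SD of 43.5 CPM. None of the 5 passed the test between BCR-ABL1 and C-MYC, the comparison in which Runx1 itself did.

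Crebbp, the acetyltransferase CBP, had 117.4 and 117.5 CPM with EV, 139.2 and 89.9 with BCR-ABL1 and 73.8 and 63.6 with C-MYC. The BCR-ABL1 libraries lay on either side of EV and differed from each other more than those of any other member in any condition, with a coefficient of variation of 30.4%, while both C-MYC libraries lay below all others. Crebbp fell in C-MYC against EV (-0.77, SE 0.198, adjusted p = 0.0157), and BCR-ABL1 exceeded C-MYC by 0.74 (SE 0.198, adjusted p = 0.0323). Without BCR-ABL1 replicate 1, this last difference was 0.39 (adjusted p = 0.251), and without C-MYC replicate 1 or 2 it was 0.85 (adjusted p = 0.0963) or 0.63 (adjusted p = 0.184). Ep300, the close relative of Crebbp, also fell in C-MYC against EV (-0.55, SE 0.148, adjusted p = 0.0189).

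Among 9 related acetyltransferases and partners of CBP, 1 rose and 3 fell in C-MYC against EV, and 2 rose in BCR-ABL1 against EV. Kat2b fell in C-MYC (-1.01, SE 0.139) and its relative Kat2a rose (0.91, SE 0.136). Kat2a also rose in BCR-ABL1 (0.48, SE 0.135, adjusted p = 0.0493). Crtc2, a CREB coactivator, fell in C-MYC (-0.56, SE 0.186, adjusted p = 0.0429). Cited2, a protein that binds the CH1 domain of CBP, had 133.2 ± 13.2 CPM with EV, 475.4 ± 24.2 with BCR-ABL1 and 126.4 ± 15.8 with C-MYC, a rise in BCR-ABL1 of 1.84 (SE 0.129, adjusted p = 0.000367).

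Tbl1xr1, a subunit of a nuclear corepressor complex, hardly varied. It had 71.0 and 75.5 CPM with EV, 75.2 and 74.4 with BCR-ABL1 and 71.4 and 76.0 with C-MYC. The conditions overlapped in each comparison, and all 6 libraries lay within a few CPM of each other. The 95% intervals of its log2 fold change were -0.23 to 0.29 in BCR-ABL1 against EV, -0.25 to 0.27 in C-MYC against EV and -0.24 to 0.28 in BCR-ABL1 against C-MYC. Gps2, another subunit of the complex, fell in C-MYC against EV (-0.48, SE 0.128, adjusted p = 0.0186).

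Nr3c1, the glucocorticoid receptor through which steroids kill lymphoid blasts, passed the test in no comparison. It had 140.5 and 104.7 CPM with EV, 118.4 and 122.2 with BCR-ABL1 and 102.6 and 110.2 with C-MYC. The EV libraries enclosed those of BCR-ABL1, and 1 of the C-MYC libraries lay between them. In C-MYC against EV the log2 fold change was -0.20, with a 95% interval from -0.55 to 0.14 and an adjusted p of 0.302. This value rested on the EV libraries: it was 0.03 without EV replicate 1 and -0.40 (adjusted p = 0.0194) without EV replicate 2.

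Of 11 tested chaperones and targets of the receptor, 5 rose and 2 fell in BCR-ABL1 against EV, and 5 rose and 4 fell in C-MYC against EV. The chaperone genes Hsp90aa1 and Fkbp4 rose in C-MYC by 1.33 (SE 0.161) and 1.31 (SE 0.144), and Fkbp4 also rose in BCR-ABL1 (0.54, SE 0.142). Tsc22d3, the target that encodes GILZ, fell in C-MYC (-1.14, SE 0.343, adjusted p = 0.0298), from an EV mean of 55.4 with an SD of 25.8 CPM. Dusp1, another target, fell in both conditions (-1.65, SE 0.466 and -1.67, SE 0.467), from an EV mean of 32.3 with an SD of 24.4 CPM. In BCR-ABL1, Bcl2l11, which encodes the death effector BIM, rose by 0.68 (SE 0.172, adjusted p = 0.0328) and Klf9 by 0.63 (SE 0.17, adjusted p = 0.0419), while Sgk1 fell by 0.68 (SE 0.168, adjusted p = 0.0299). In C-MYC against EV, Klf9 also rose (0.62, SE 0.17) and Sgk1 also fell (-0.61, SE 0.168), while Bcl2l11 fell (-0.52, SE 0.173, adjusted p = 0.0415). Hsp90ab1 was lower in BCR-ABL1 than in C-MYC (-0.59, SE 0.0907, adjusted p = 0.00486).

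Nf1, the GTPase activating protein that switches RAS off, had 16.4 and 16.4 CPM with EV, 17.4 and 16.0 with BCR-ABL1 and 10.9 and 12.7 with C-MYC. The C-MYC libraries lay below the other 4. In C-MYC against EV it fell by 0.47 (SE 0.165, adjusted p = 0.0495), a value at the threshold that passed it in none of the 6 fits that left out 1 library each, where adjusted p lay between 0.063 and 0.236. Between BCR-ABL1 and C-MYC the difference of 0.50 had a similar size (SE 0.165) and did not pass (adjusted p = 0.0629). It passed with a replicate block (adjusted p = 0.039), with only the 4 libraries compared (adjusted p = 0.0346) and without EV replicate 1 (adjusted p = 0.0341) or EV replicate 2 (adjusted p = 0.0332), and in none of the 4 fits that left out a BCR-ABL1 or C-MYC library (adjusted p from 0.131 to 0.361). Inside Nf1, on the other strand, lies Evi2a, a small membrane protein gene that shares no exon with it. Evi2a had 455 and 509 counts with EV, 237 and 241 with BCR-ABL1 and 108 and 154 with C-MYC, a fall of 1.00 (adjusted p = 0.0138) and 1.84 (adjusted p = 0.000611) on the log2 scale. Its neighbors inside Nf1 were low or unread, with 4 to 23 counts for Omg and 0 for Evi2b.

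Of 14 other genes of RAS and its regulators, 1 rose and 5 fell in C-MYC against EV, and 2 rose and 1 fell in BCR-ABL1 against EV. Rasa3 and Rasal3, other GTPase activating proteins, fell in C-MYC by 0.99 (SE 0.12) and 0.83 (SE 0.103). Hras rose in C-MYC by 0.98 (SE 0.153), and the exchange factor Rasgrp1 fell by 1.26 (SE 0.245). Spred1, which brings NF1 to RAS at the membrane, had 56.3 ± 18.5 CPM with EV, 129.9 ± 0.40 with BCR-ABL1 and 35.0 ± 1.45 with C-MYC, a rise of 1.21 in BCR-ABL1 (SE 0.205, adjusted p = 0.00747). Spred2 rose with it by 1.27 (SE 0.356, adjusted p = 0.0474). Rasal1 fell in BCR-ABL1 by 1.52 (SE 0.234).

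Btla, an inhibitory receptor of lymphocytes, was the lowest member. It had 72 and 93 reads with EV, 87 and 88 with BCR-ABL1 and 35 and 27 with C-MYC, or 3.37 and 3.89, 4.12 and 3.66, and 1.61 and 1.21 CPM. EV and BCR-ABL1 overlapped, and both C-MYC libraries were far below them. EV exceeded C-MYC 2.57-fold (log2 fold change -1.36, SE 0.294, adjusted p = 0.00785) and BCR-ABL1 exceeded it 2.75-fold (1.46, SE 0.293, adjusted p = 0.0116). With limma on log2(FPKM + 1), a scale that understates the change of low genes, the values were -0.52 (adjusted p = 0.00593) and 0.58 (adjusted p = 0.0105). The difference between BCR-ABL1 and EV was 0.10 with a 95% interval from -0.53 to 0.73. Changes well above 0.10, up to the limits of this interval, are therefore not excluded at this depth.

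Of 10 genes tied to Btla, its ligand, its partners and other inhibitory receptors, 7 fell in BCR-ABL1 against EV and 6 in C-MYC against EV, and none rose in either. Tnfrsf14, the ligand HVEM, had 11.9 ± 0.49 CPM with EV, 5.07 ± 0.94 with BCR-ABL1 and 3.63 ± 0.71 with C-MYC. It fell by 1.23 (SE 0.241, adjusted p = 0.0126) and 1.72 (SE 0.247, adjusted p = 0.0015). Cd160, another receptor of HVEM found on T and NK cells, fell (log2 fold changes -3.19, SE 0.312, and -2.98, SE 0.307), and the T and NK cell markers were higher in EV as given above. Lag3, Tnfsf14 and Pdcd1 were also among the 7 that fell in BCR-ABL1 and were low in EV. Their EV means were 6.21 ± 3.58, 4.13 ± 1.17 and 1.62 ± 1.28 CPM. The part of T and NK cells in the falls of this list was not tested. Cd72 fell in BCR-ABL1 (-1.49, SE 0.133), and Cd22 fell in both conditions (-1.37, SE 0.157 and -0.46, SE 0.153). Ptpn6, the phosphatase SHP-1 that acts downstream of such receptors, had 163.5 ± 31.4 CPM with EV, 139.6 ± 4.29 with BCR-ABL1 and 65.4 ± 8.98 with C-MYC. Like Btla it fell in C-MYC against EV (-1.32, SE 0.16, adjusted p = 0.000765) and was higher in BCR-ABL1 than in C-MYC (1.10, SE 0.16, adjusted p = 0.00398). In that last comparison 1 of the 10 genes was higher, Ptpn6, and 2 were lower. These were Cd72 (-1.17, SE 0.133, adjusted p = 0.00163) and Cd22 (-0.91, SE 0.157, adjusted p = 0.0069), which went the other way from Btla.

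Other genes altered in B-ALL were set beside the 10. Of 46 tested, 3 rose and 6 fell in BCR-ABL1 against EV, 4 rose and 22 fell in C-MYC against EV, and 12 were higher and 0 lower in BCR-ABL1 than in C-MYC. Their median log2 fold changes were 0.01, -0.47 and 0.23, against 0.00, -0.08 and 0.00 for all genes. Over all genes tested, 5.08% rose and 12.0% fell in BCR-ABL1 against EV, and 18.6% rose and 24.5% fell in C-MYC against EV. Between BCR-ABL1 and C-MYC, 11.9% of all genes were higher in BCR-ABL1 and 11.5% lower. Rag1 and Rag2, which encode the V(D)J recombinase, fell in C-MYC against EV (-3.19, SE 0.193, and -1.81, SE 0.226). Rag1 also fell in BCR-ABL1 against EV (-0.77, SE 0.173, adjusted p = 0.021), where Rag2 did not pass the test (-0.04). Il7r, the IL-7 receptor, fell in C-MYC (-1.61, SE 0.17) and in BCR-ABL1 (-1.81, SE 0.171). Cdkn2a, the locus of the cell cycle inhibitors INK4A and ARF, had 60.0 ± 0.45 CPM with BCR-ABL1 and 22.9 ± 0.33 with C-MYC, a difference of 1.39 (SE 0.145, adjusted p = 0.0013). Flt3, a receptor kinase of progenitors, was higher in BCR-ABL1 than in C-MYC by 2.62 (SE 0.486, adjusted p = 0.00873). Its level was low, at 7.16 ± 3.42 CPM with BCR-ABL1 and 1.16 ± 0.44 with C-MYC. Lmo2 and Arid5b fell in BCR-ABL1 by 1.89 (SE 0.259) and 1.53 (SE 0.356). Both also fell in C-MYC against EV (log2 fold changes -1.03, SE 0.248, and -1.415, SE 0.354). For Arid5b the EV mean was 7.87 with an SD of 3.59 CPM. Dmd rose in both conditions, by 1.60 (SE 0.286) and 1.94 (SE 0.285), from a low EV mean of 1.42 ± 0.36 CPM.

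**Figure D3:**
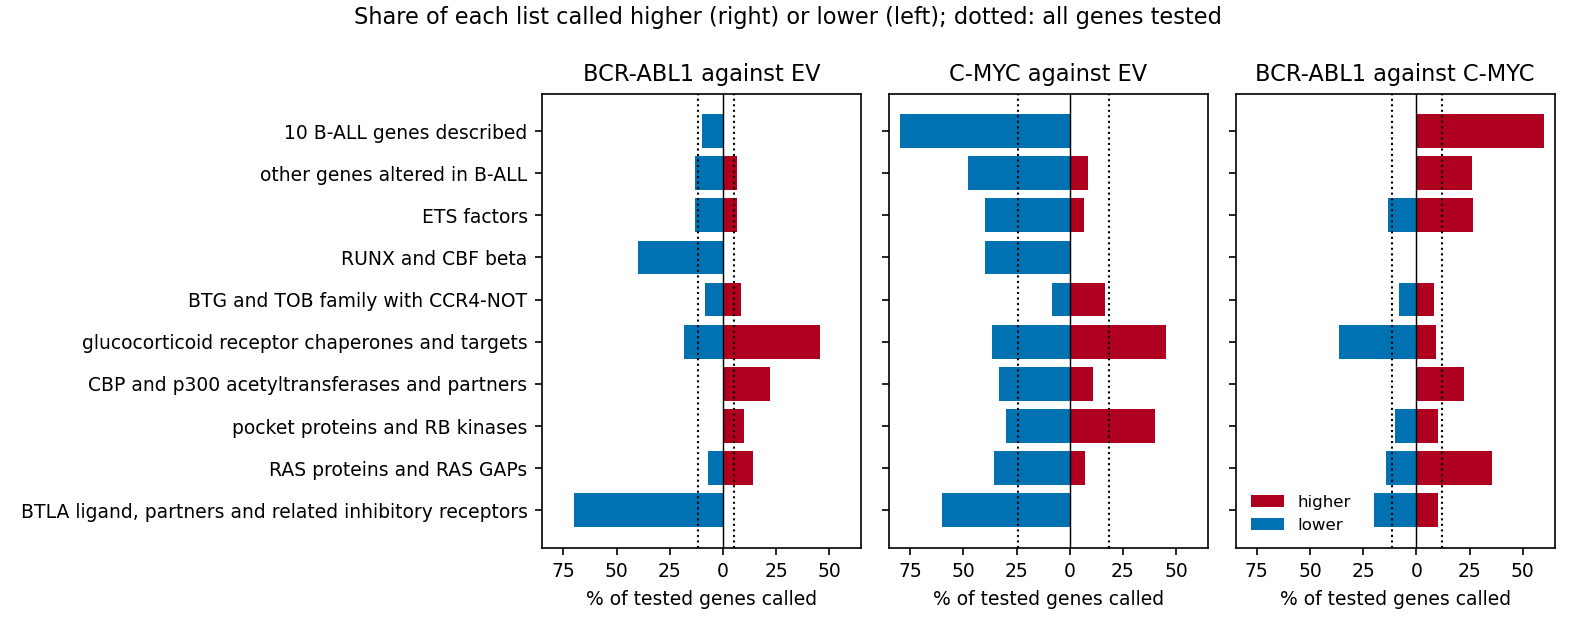
Share of the tested genes of each list called higher (red, to the right) or lower (blue, to the left) in each comparison, with the share over all genes tested as dotted lines. In C-MYC against EV the 10 genes (8 lower, 0 higher) and the 46 other genes altered in B-ALL (22 lower, 4 higher) extend past the dotted line to the left, and in BCR-ABL1 against C-MYC both extend past it to the right.

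Since 8 of the 10 span at least 100 kb, calls were also counted by the span of the gene, with this limit chosen after the values were seen. Of 1492 tested genes of at least 100 kb, 35.0% were lower and 10.1% higher in C-MYC than in EV, with a median log2 fold change of -0.33. Of 10800 shorter genes, 23.2% were lower and 20.0% higher, with a median of -0.05. Of the 8 long members 6 were lower, and both short members, Btg1 and Btla, were lower. In BCR-ABL1 against C-MYC, 18.9% of the long genes and 11.0% of the shorter genes were higher, as were 4 of the 8 long members and both short ones.

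FPKM and counts gave different pictures of Erg. Its FPKM was 72.5 in BCR-ABL1 replicate 1 and 39.1 in replicate 2, and 44.2 and 24.1 in the C-MYC replicates, ratios of 1.85 and 1.84. In CPM the same ratios were 1.07 and 1.12, and in EV the replicates differed little on both scales, with 38.6 and 43.3 FPKM. Such disagreement was rare, since FPKM and CPM ratios between the BCR-ABL1 replicates differed by more than 0.5 on the log2 scale for 1.06% of 10622 genes whose mean count reached 50. With limma on log2(FPKM + 1), the fall of Erg in C-MYC against EV was -0.32 and did not pass the test (adjusted p = 0.521). Its cause was not tested.

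**Figure D4:**
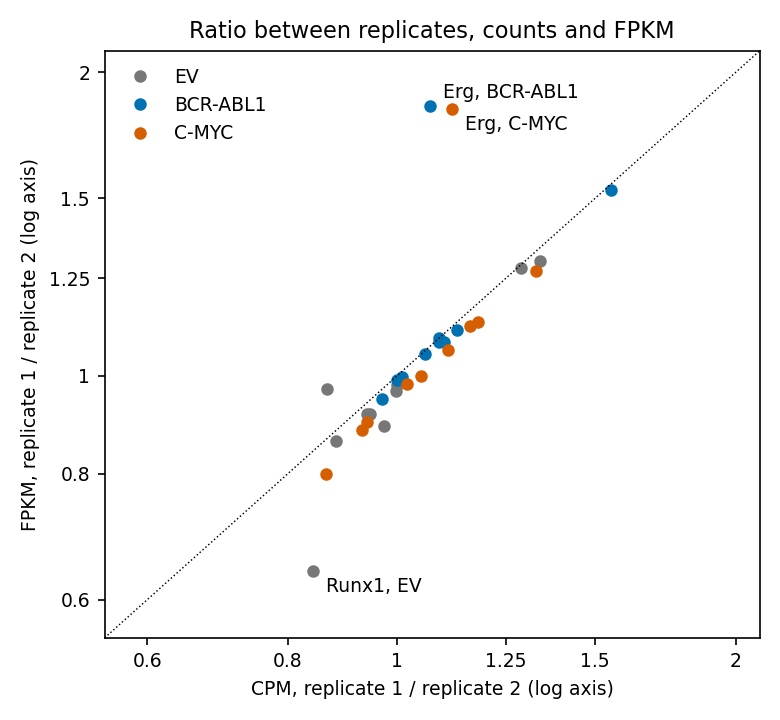
Ratio of replicate 1 to replicate 2 for each of the 10 genes in CPM (horizontal, log axis) and in FPKM (vertical, log axis), with 1 point per gene and condition and the line of equal ratios dotted. Erg lies far above the line in BCR-ABL1 (1.85 in FPKM, 1.07 in CPM) and C-MYC (1.84 and 1.12), and Runx1 lies below it in EV (0.641 and 0.843).

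The calls rested on few libraries. In C-MYC against EV, 5 members were called without C-MYC replicate 1 (Btg1, Btla, Erg, Rb1 and Runx1) and 3 without C-MYC replicate 2 (Btg1, Erg and Rb1), where adjusted p was 0.0503 for Runx1, 0.0578 for Btla and 0.105 for Crebbp. Etv6 was called only without EV replicate 1 (adjusted p = 0.0138) and reached 0.17 without C-MYC replicate 2. In BCR-ABL1 against C-MYC, only Btg1 was called without BCR-ABL1 replicate 1, where adjusted p was 0.0665 for Erg, 0.0725 for Rb1, 0.103 for Btla and 0.199 for Runx1. Without BCR-ABL1 replicate 2, 3 genes were called (Btg1, Erg and Crebbp), without C-MYC replicate 1, 4 genes (Btg1, Erg, Rb1 and Btla), and without C-MYC replicate 2, Btg1 and Erg. Each of the 6 genes kept its direction in all of these fits, and Btg1 was called in all 3 comparisons whichever library was left out.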

How the data were processed

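The authors used STAR 2.5.0 and UCSC known genes to align the reads to GRCm38/mm10, and deposited raw counts per gene symbol and FPKM values from StringTie 1.3.0; the counting program and its use of strand are not given in the sources used here. The columns were matched to the 6 RNA-seq libraries by name, and the 15 other libraries of the series were not used here. Counts were fitted with edgeR 4.0.16 in R 4.3.3 (filterByExpr, TMM, glmQLFit and glmQLFTest, all 6 libraries, no covariate). P-values were adjusted by Benjamini and Hochberg over 12786 genes, with calls at 0.05. The standard error is the absolute log2 fold change over the square root of F. The common biological coefficient of variation was 0.151, and depth was 20687092 to 24095955 counts per library. A library's 0 allows up to 3 counts. Replicates differed by more than counting noise (chi-square per degree of freedom 45.2 between EV libraries, 10.1 between those of BCR-ABL1 and 19.1 between those of C-MYC).

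Alternatives were DESeq2 1.42.0 (size factors or test), no filter on low counts, only the 4 libraries compared, a replicate term, each library left out, limma 3.58.1 on log2(FPKM + 1) or log2(FPKM + 0.1), counts per kilobase of GENCODE M21 exon, and scaling by the total count, the last chosen after seeing the data. The fits were tested on simulated data. Python 3.11.15 was used for annotation. Symbols of 12292 tested genes (96.1%) matched the annotation.

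All 10 genes are named. Of each list of related genes, up to 4 per comparison are named, those with the largest change among called genes whose mean count reached 50, as are genes inside the 10 or sharing their exons. Lag3, Tnfsf14 and Pdcd1 are named although their mean counts lay below 50. The 10 genes and the lists were chosen with earlier results of these data known, and no list was tested as a set. The counts for the partners of Tbl1xr1 are not reported here.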

Additional observations from a re-analysis of the deposited data

How the results depend on the processing

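Over 30 log2 fold changes of the 10 genes and 14 other settings, 347 of 420 refits kept direction and side of the threshold, 43 lost a call, 5 gained one and 25 changed sign. None of the differences that changed sign had passed the test. With 1 library left out, Tbl1xr1 ranged from -0.0075 to 0.078 in BCR-ABL1 against EV, from -0.030 to 0.060 in C-MYC against EV and from -0.022 to 0.067 in BCR-ABL1 against C-MYC. Against EV, BCR-ABL1 ranged from -0.063 to 0.025 for Erg, -0.22 to 0.20 for Nr3c1, -0.38 to 0.24 for Crebbp and -0.029 to 0.088 for Nf1, and Nr3c1 in C-MYC from -0.40 to 0.027. With DESeq2's size factors and its test, Tbl1xr1 in BCR-ABL1 against C-MYC was -0.0033 and -0.0043, and with DESeq2's test Erg in BCR-ABL1 against EV was 0.0065. With limma on log2(FPKM + 1) and log2(FPKM + 0.1), values in BCR-ABL1 against EV were 0.37 and 0.38 for Erg, -0.0446 and -0.0459 for Tbl1xr1 and -0.036 and -0.045 for Nf1, and Tbl1xr1 in C-MYC against EV was -0.113 and -0.116. Scaled by the total count, these were -0.041 for Tbl1xr1 and -0.043 for Nf1 in BCR-ABL1 against EV and -0.108 for Tbl1xr1 in C-MYC against EV, where this scaling moved the median of all genes from -0.08 to -0.19. The causes were not tested.

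The count of members called in BCR-ABL1 against EV was 1 in each fit. Leaving out 1 library gave 3 to 7 in C-MYC against EV and 1 to 7 in BCR-ABL1 against C-MYC. With limma on log2(FPKM + 1) it was 3 in BCR-ABL1 against C-MYC, where Runx1, Erg and Crebbp were not called. Over all genes, leaving out 1 library gave 665 to 2729 calls in BCR-ABL1 against EV (2180 with all), 3329 to 6077 in C-MYC against EV (5515) and 618 to 4519 in BCR-ABL1 against C-MYC (2991), the lowest without BCR-ABL1 replicate 2, C-MYC replicate 1 and BCR-ABL1 replicate 1. With only the 4 libraries compared, BCR-ABL1 against C-MYC had 4538. Nf1 in C-MYC against EV also missed the threshold with DESeq2's size factors (adjusted p = 0.0671), DESeq2's test (0.092), no filter (0.0794) and only the 4 libraries (0.156, where Etv6 had 0.0955).

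Same-numbered libraries deviated together weakly across genes (r = 0.273, 0.236 and 0.204), but the labels tie no number to a shared batch. With a replicate block, the call of Nf1 in BCR-ABL1 against C-MYC was gained (0.50, adjusted p = 0.039), and no other call of the 10 genes changed.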
